A study of Bos taurus with 6 samples.

Results

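The bovine miRNAs numbered from bta-miR-2491 to bta-miR-10999 were examined in granulosa cells exposed to heat. Membership went by name alone, though the span was set with earlier results of these data known. Every listed bta-miR with a number in that span was taken, with any letter or arm suffix, except bta-miR-2887 and bta-miR-2904. This gave 131 miRNAs of the 1028 in the tables, carrying 117 different numbers from 2881 to 10225. Granulosa cells are the follicular cells that surround and nourish the oocyte. Those of follicles 3 to 6 mm in diameter, named small antral follicles in the labels, were aspirated from slaughterhouse ovaries and cultured for 24 h in medium with exosome-depleted serum. For the next 24 h they stayed at 37 °C (control) or were moved to 42 °C (heat stress, HS). Small RNA was sequenced in 3 libraries per group, numbered 1 to 3. The sources call the libraries biological replicates and do not say how many animals or ovaries each one pools, so p-values measure the spread between these libraries. The tables hold miRNAs only, so the identity of the cells could not be checked against granulosa marker genes.

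A miRNA is cut from a hairpin precursor, and either arm of the hairpin can yield a mature strand, named 5p or 3p. One strand is loaded into an Argonaute protein and guides it to messenger RNAs that match its seed, which lowers their translation or stability. Catalogue numbers follow the order of registration. Low numbers are mostly conserved miRNAs found early by cloning, whereas higher ones were mostly registered from deep sequencing, and many have been described in few species. Such entries are often scarce, and some lie inside the exons or introns of other genes. No sequence of these miRNAs was analysed here.

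Levels are normalised read counts (CPM), in which the reads of a library are divided by its total after scaling with TMM, a trimmed mean of log ratios. The depth was 2076239 to 4590971 miRNA reads per library, and control replicate 1 was the shallowest. In a given library 3 reads, taken as the floor for counting error alone, correspond to 0.639 to 1.46 CPM. None of the 15 pairs of libraries agreed within sampling noise, where chi-square per degree of freedom ran from 57.7 to 431.

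Most of these miRNAs were scarce or without reads. Of the 131, 79 (60.3%) were seen at least once and the other 52 never, against 676 of the other 897 miRNAs (75.4%) with a read. The filter on low reads kept 33 (25.2%) and removed 46 that had reads. The same filter kept 332 of the other miRNAs (37%). Presence differed between the blocks of numbers. Of the 22 miRNAs up to miR-2999 only 2 had reads, bta-miR-2900 and bta-miR-2903, with 5 reads between them in all 6 libraries. In the miR-6119 to miR-6123 series, by contrast, 7 of 9 had reads and 5 were tested. In the miR-6516 to miR-6536 series 18 of 23 had reads and 10 were tested. From miR-3000 to miR-5999, 16 of 26 had reads and 6 were tested. From miR-7000 to miR-9999 these numbers were 12 of 16 and 6, and from miR-10000 on they were 21 of 32 and 5. The other 3 miRNAs from miR-6000 to miR-6999 all had reads, and 1 of them was tested.

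**Figure D1:**
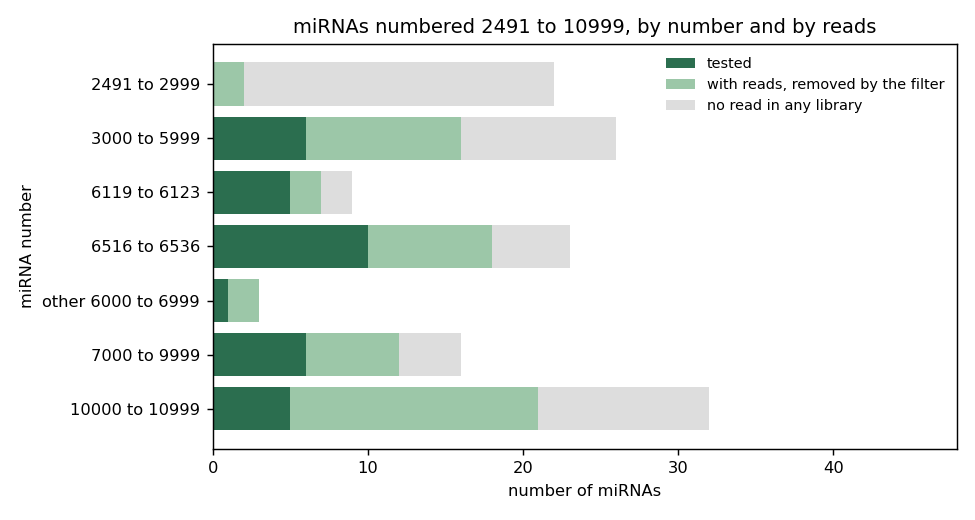
Horizontal bars give the number of miRNAs in each block of catalogue numbers, split into those tested for a difference, those with reads that the filter removed, and those with no read in any library. The block up to miR-2999 is almost empty, with 20 of 22 at 0, whereas 10 of 23 miRNAs from miR-6516 to miR-6536 were tested.

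The reads were concentrated in few miRNAs. Together all 131 held 0.815%, 0.801% and 0.883% of the miRNA reads in the control (replicates 1, 2 and 3), and 0.637%, 0.746% and 0.764% in HS. The HS libraries were all below the control libraries, with means of 0.833% ± 0.044 in control and 0.715% ± 0.069 in HS (SD, n = 3 each). No test was made of this sum. On the CPM scale the sum went from 8319 ± 438 to 7153 ± 479. A single miRNA, bta-miR-6120-3p, accounted for 46.3% of that difference, bta-miR-6119-5p for 22.7% and bta-miR-6529a for 18.3%. With bta-miR-6120-3p left out, a choice made once its values were known, the means were 0.753% and 0.689% and the groups overlapped. Without HS replicate 1, the lowest library, the difference between the group means shrank from -0.118 to -0.078 percentage points.

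bta-miR-3432a was the most abundant of these miRNAs and took 31.1% of their reads. It had 2363, 2459 and 2282 CPM in the control (replicates 1, 2 and 3) and 2155, 2724 and 2343 in HS. The HS libraries lay on both sides of the control range, and the log2 fold change was 0.018 with a 95% interval of -0.28 to 0.31 (limma adjusted p = 0.969). Only 93 reads in all were assigned to its sister bta-miR-3432b, against 51869 for bta-miR-3432a. How reads that fit both were shared between such near-identical names is not given in the sources used here. The RefSeq table holds 2 genes for bta-miR-3432a, 1 overlapping HIP1 and 1 overlapping TP53BP1, so its level may add up both.

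bta-miR-10174-3p, the next most abundant, had 1766, 1530 and 2142 CPM in control and 1420, 1804 and 1998 in HS, with overlapping groups (log2 fold change -0.06, 95% interval -0.49 to 0.38, limma adjusted p = 0.959). These 2 miRNAs together made up 54.2% of the reads, and the 7 most abundant 89.5%. bta-miR-3431 had 740.6, 664.1 and 700.7 CPM in control and 671.9, 602.3 and 699.4 in HS (log2 fold change -0.09, 95% interval -0.39 to 0.20, limma adjusted p = 0.839), and the change was -0.032 without HS replicate 2 and -0.14 without HS replicate 3. Its gene overlaps GABRE, a GABA receptor subunit gene, and lies within 10 kb of the genes of miR-224 and miR-452. These neighbours also differed little between groups. bta-miR-224 had 761.1 CPM in control and 808.3 in HS, and bta-miR-452 had 167.7 and 158.3 (limma adjusted p = 0.841 and 0.939). Of all 131 miRNAs, 5 ranked among the 100 most abundant of the tables.

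**Figure D2:**
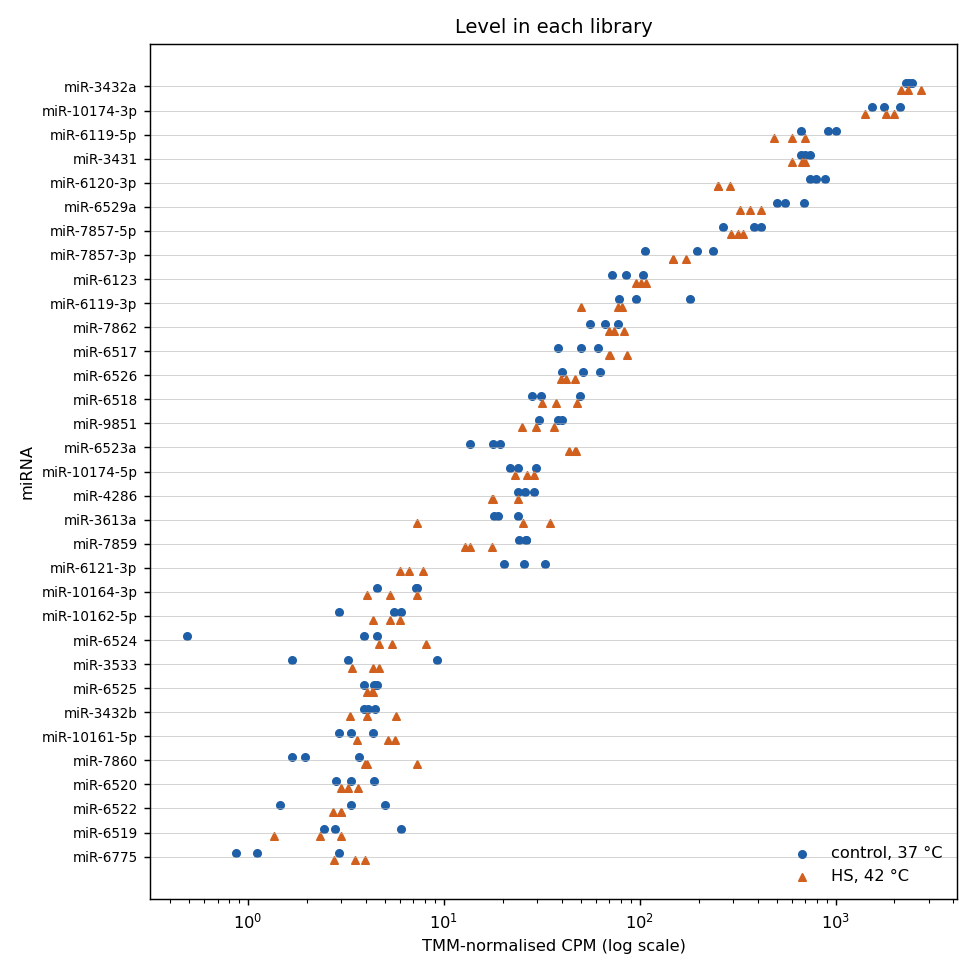
Each row is 1 of the 33 tested miRNAs, ordered by mean level, and the horizontal axis is TMM-normalised CPM on a log scale. Blue circles are the 3 control libraries and orange triangles the 3 HS libraries. Levels run from bta-miR-3432a at the top to bta-miR-6775 at the bottom, and the symbols are clearly apart for bta-miR-6120-3p, bta-miR-6121-3p and bta-miR-6523a.

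By the detection criterion of the study, which asks for 10 CPM in at least 2 libraries of a group, 21 of these miRNAs were detected in the control and 20 after heat, all of which were among the 21. The exception was bta-miR-6121-3p, which fell below 10 CPM in all HS libraries.

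To ask which of these miRNAs responded to heat, the fit was made over all 365 miRNAs that passed the filter. Of the 33 tested here, 3 met the study's criterion, an adjusted p no higher than 0.2 and a change of 1 or more on the log2 scale. The study applied these limits to edgeR results, whereas here they were applied to limma. bta-miR-6120-3p and bta-miR-6121-3p fell in HS cells and bta-miR-6523a rose. They make up 9.09% of the 33, whereas 3.01% of all 365 passed. With no minimum on the fold change, 5 of 33 had an adjusted p of at most 0.2 (15.2%), against 7.12% of all. The same 3 were under 0.05 (9.09% against 2.19%). Groups did not overlap for 9 of 33 (27.3%), against 20% of all. Since the set was drawn up with earlier results of these data known, these shares are descriptions and were not tested. Of the 33, 27 passed the filter's minimum in all 6 libraries, and none reached it in the libraries of 1 group alone. bta-miR-7860 and bta-miR-6775 came closest to that, with all 3 HS libraries and 1 control library above it.

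**Figure D3:**
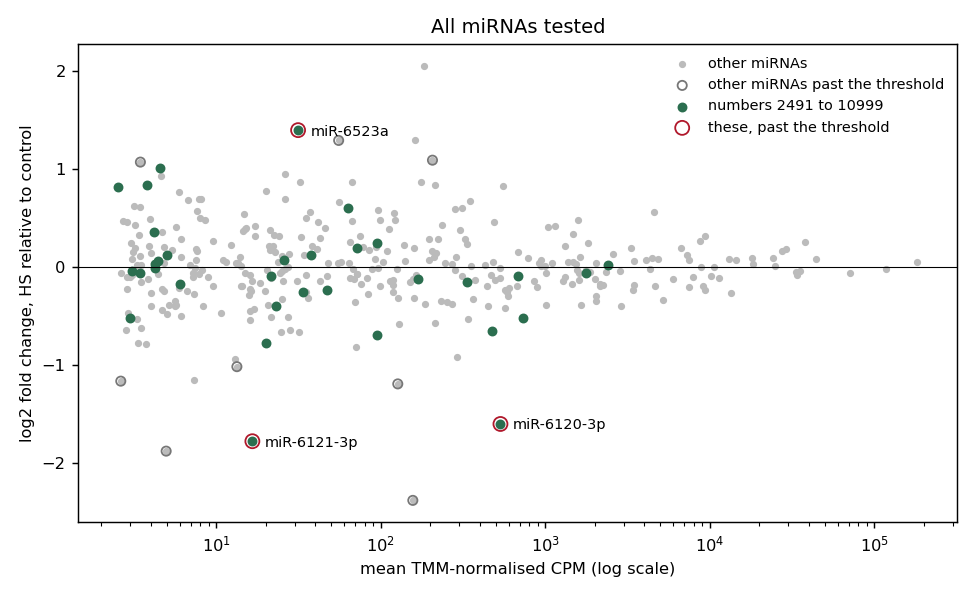
The log2 fold change of HS relative to control is plotted against the mean TMM-normalised CPM (log scale) for all 365 miRNAs tested. Green points are the miRNAs from miR-2491 to miR-10999, and circles mark those that met the study's criterion. Of the 11 circled points, 3 are green: bta-miR-6120-3p, bta-miR-6121-3p and bta-miR-6523a.

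Both miRNAs that fell belong to the miR-6119 to miR-6123 series. bta-miR-6120-3p had 736.7, 879 and 793.8 CPM in the control (replicates 1, 2 and 3) and 250.9, 249.9 and 288.8 in HS. Every HS library was below every control library, and the HS libraries lay close together. The mean was 3.05-fold lower in HS, a log2 fold change of -1.61 ± 0.139 (SE; 95% interval -1.93 to -1.28, limma adjusted p = 0.00325). These values rest on 756 to 4046 reads per library. The same hairpin also yields bta-miR-6120-5p, for which 4, 7 and 5 reads were counted in control and 4, 5 and 7 in HS. The 5p arm was thus about as rare in both groups, with an HS to control ratio of 0.897 per miRNA read (95% interval 0.42 to 1.92, exact, counting error only). The ratio computed the same way was 0.324 for the 3p arm. With so few 5p reads the difference between the arms was not tested. The gene of the hairpin overlaps CSNK1G2, which encodes a casein kinase.

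bta-miR-6121-3p was far less abundant, with 32.7, 20.4 and 25.6 CPM in control and 6.64, 5.98 and 7.88 in HS. The groups did not overlap, and the mean was 3.84-fold lower in HS (log2 fold change -1.78 ± 0.233, limma adjusted p = 0.0117). The HS values correspond to 20, 22 and 37 reads. Its other arm, bta-miR-6121-5p, was listed at 0 in all 6 libraries, so the arms could not be compared. The gene overlaps PLXNA2, a receptor of the plexin family through which semaphorins act.

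The rest of that series did not pass the test. bta-miR-6119-5p, whose gene overlaps that of the ribosomal protein RPL39, had 663.5, 914.6 and 1001 CPM in control and 598.3, 486 and 700.5 in HS. Control replicate 1 lay within the HS range (log2 fold change -0.52, 95% interval -1.02 to -0.026, limma adjusted p = 0.306). Leaving out 1 library at a time gave log2 fold changes from -0.39 (without HS replicate 2) to -0.70 (without control replicate 1), with limma adjusted p-values of 0.156 to 0.677, and only the fit without control replicate 1 was under 0.2. Its partner bta-miR-6119-3p had 96.2, 78.9 and 181.7 CPM in control and 78, 50 and 81.1 in HS (log2 fold change -0.70, limma adjusted p = 0.418). Control replicate 3 was the highest library, and leaving it out gave a change of -0.35 on that scale (limma adjusted p = 0.707). bta-miR-6123, within 10 kb of the gene of miR-296, had 103.5, 71.9 and 85.3 CPM in control and 108.2, 95.7 and 101.5 in HS (log2 fold change 0.24, limma adjusted p = 0.641), and the change was 0.11 without control replicate 2 and 0.37 without control replicate 1. bta-miR-6122-3p had 0, 1 and 5 control reads and 0 in each HS library. A count of 0 there allows up to 0.639 to 0.995 CPM, against 0, 0.217 and 1.39 CPM in control. In a limma fit without the filter the log2 fold change of bta-miR-6122-3p was -0.51 (adjusted p = 0.654). So few reads do not settle whether it differed. bta-miR-6122-5p had no read. Of the 5 tested miRNAs of the series, then, 2 fell and 3 did not pass, where 3.01% of all 365 met the criterion.

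bta-miR-6523a was the one that rose. It had 13.7, 19.3 and 17.8 CPM in control and 43.5, 47.3 and 46.6 in HS. The HS libraries agreed closely and all lay more than 2-fold above the highest control library. The mean was 2.70-fold higher (log2 fold change 1.40 ± 0.192, 95% interval 0.94 to 1.85, limma adjusted p = 0.0128), on 28 to 89 reads per control library and 131 to 219 per HS library. Its gene overlaps EPG5, an autophagy gene, and also that of bta-miR-6523b, which had no read in any library. The same was seen for bta-miR-3613a and bta-miR-6529a, whose b-named sisters have overlapping genes and were also listed at 0. In these pairs all reads were assigned to the a name.

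**Figure D4:**
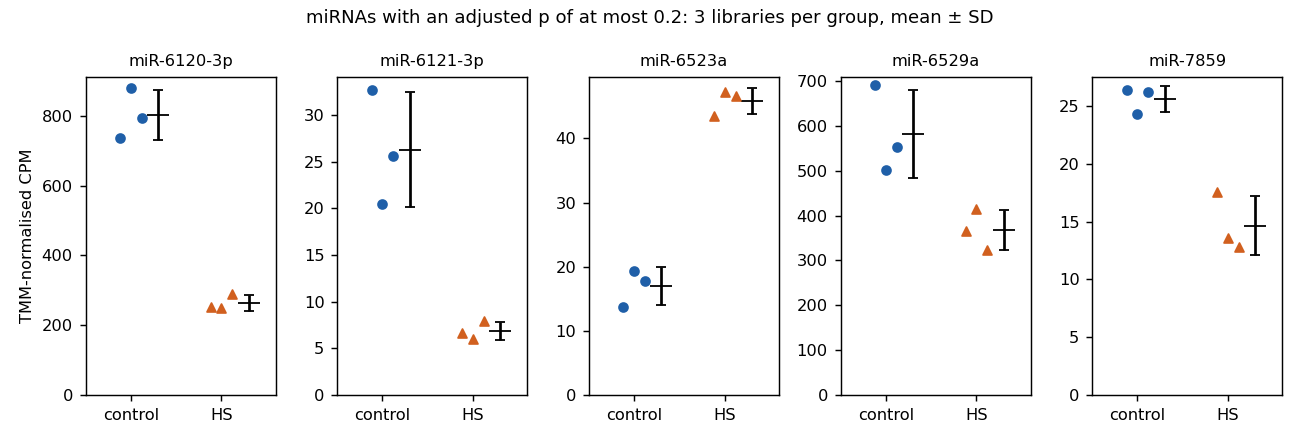
TMM-normalised CPM in each library (blue circles control, orange triangles HS; 3 libraries per group) for the 5 miRNAs with an adjusted p of at most 0.2, with the mean and SD drawn beside them in black and each axis starting at 0. The control and HS symbols do not overlap in any panel, and bta-miR-6523a alone is higher in HS.

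Leaving out any 1 of the 6 libraries kept the 3 calls. At an adjusted p under 0.05, however, bta-miR-6120-3p alone remained in 4 of these fits. Without control replicate 3 the limma adjusted p of bta-miR-6121-3p and bta-miR-6523a was 0.0621 for each, and without HS replicate 1 it was 0.0538 for each. Without HS replicate 2 it was 0.0835 and 0.0915, and without HS replicate 3 it was 0.0631 and 0.0922. A further miRNA, bta-miR-6775, passed the study's criterion without control replicate 1. It had 6, 4 and 4 control reads and 12, 13 and 13 in HS (log2 fold change 0.82, limma adjusted p = 0.306), and without that library its log2 fold change was 1.15 (limma adjusted p = 0.0985). With each of the other libraries left out in turn it was 0.61 to 0.93, with limma adjusted p-values of 0.506 to 0.651. It was named after its values were seen.

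A smaller decrease with an adjusted p of at most 0.2 was found for bta-miR-6529a and bta-miR-7859. bta-miR-6529a, whose gene overlaps GSK3B, which encodes a kinase of glycogen metabolism and Wnt signalling, had 690.8, 501.2 and 553.3 CPM in control and 365.7, 415 and 324.2 in HS. The groups did not overlap, with a log2 fold change of -0.65 ± 0.174 (95% interval -1.07 to -0.24, limma adjusted p = 0.135). This call held without control replicate 2 (limma adjusted p = 0.147) and was lost when any of the others was left out. The limma adjusted p was 0.222 without control replicate 1, 0.32 without control replicate 3, 0.334 without HS replicate 1, 0.291 without HS replicate 2 and 0.437 without HS replicate 3. In these 6 fits the log2 fold change itself stayed between -0.75 and -0.52.

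bta-miR-7859, whose gene overlaps PTGR2, a prostaglandin reductase gene, had 26.4, 24.3 and 26.2 CPM in control and 17.6, 13.6 and 12.8 in HS. The control libraries were nearly equal and all above the HS libraries (log2 fold change -0.78 ± 0.192, 95% interval -1.23 to -0.32, limma adjusted p = 0.118). Without control replicate 3 its limma adjusted p was 0.32, without HS replicate 2 it was 0.35, and without HS replicate 3 it was 0.393. Over all 6 such fits its log2 fold change ran from -0.91 to -0.69.

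In the miR-6516 to miR-6536 series, 1 of the 10 tested miRNAs rose at the study's criterion (bta-miR-6523a) and 1 fell at the adjusted p alone (bta-miR-6529a). Over all 365, 3.01% met the criterion and 7.12% the limit on adjusted p, in either direction. bta-miR-6517, whose gene overlaps DNAAF2, had 61.5, 38.2 and 50.4 CPM in control and 70, 85.9 and 70.5 in HS. All HS libraries were above the control libraries, but the adjusted p stayed above the threshold (log2 fold change 0.60, limma adjusted p = 0.278). Leaving out 1 library at a time gave 0.42 (without control replicate 2) to 0.76 (without control replicate 1), with limma adjusted p-values of 0.156 to 0.536, and only the fit without control replicate 1 was under 0.2. bta-miR-6524, whose gene overlaps PDCD4, had 0.488, 4.56 and 3.90 CPM in control and 4.65, 5.44 and 8.09 in HS. On this scale the groups were just apart, by less than 1 read is worth, while the reads themselves overlapped, with 1, 21 and 14 in control and 14, 20 and 38 in HS. The single read in control replicate 1 set much of its spread (log2 fold change 1.01, 95% interval -0.22 to 2.24, limma adjusted p = 0.439), and without that library the log2 fold change was 0.40. With each of the other libraries left out in turn it was 0.81 to 1.36, with limma adjusted p-values of 0.302 to 0.737. bta-miR-6518, whose gene overlaps that of the peptide hormone adrenomedullin (ADM), had 49.8, 28.2 and 31.5 CPM in control and 37.5, 48.1 and 31.7 in HS (log2 fold change 0.12, limma adjusted p = 0.947). bta-miR-6526 had 40, 63 and 51.5 CPM in control and 42.1, 39.7 and 46.6 in HS (log2 fold change -0.24, limma adjusted p = 0.731), and the change was -0.087 without control replicate 2 and -0.41 without control replicate 1. The other 4, bta-miR-6519, bta-miR-6520, bta-miR-6522 and bta-miR-6525, had means of 2.22 to 4.29 CPM in either group and limma adjusted p-values of 0.596 to 0.981.

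Among the remaining tested miRNAs, bta-miR-7860 had 4, 17 and 6 control reads and 12, 27 and 19 in HS. Its CPM did not overlap between groups (1.67 to 3.69 against 3.98 to 7.34), but the adjusted p of limma was 0.303 at a log2 fold change of 0.83, which was 0.59 without HS replicate 2 and 1.08 without control replicate 2. bta-miR-4286 was lower in all HS libraries, though by a narrow margin, with 28.8, 26.1 and 24 CPM in control and 23.9, 17.7 and 17.9 in HS (log2 fold change -0.40, limma adjusted p = 0.418). The gene of bta-miR-9851 overlaps HSPA12A, a gene of the heat shock protein 70 family. It had 30.8, 38.5 and 40.1 CPM in control and 25.2, 36.7 and 29.6 in HS, with overlapping groups (log2 fold change -0.26, limma adjusted p = 0.691), and the change was -0.13 without HS replicate 1 and -0.39 without HS replicate 2. bta-miR-3613a differed widely among the HS libraries, with 7.3, 25.3 and 34.7 CPM, while control cells had 18.1, 23.9 and 18.9. bta-miR-3533, whose gene overlaps the gamma-actin gene ACTG1, varied in control cells instead, from 9.28 CPM in replicate 1 to 3.26 and 1.67 in replicates 2 and 3, against 3.41 to 4.65 in HS. Apart from bta-miR-7860, these were named after their values were seen. Groups also overlapped for bta-miR-7862, bta-miR-10174-5p, bta-miR-10164-3p, bta-miR-10162-5p, bta-miR-10161-5p and bta-miR-3432b.

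Over the 33 tested miRNAs the median log2 fold change was -0.059, against -0.0015 over all 365. Its median size was 0.24 against 0.20. The change was under 0.5 in size for 21 of the 33 (63.6%) and for 299 of all (81.9%). The median SD between replicates on the log2 scale was 0.26 in control and 0.188 in HS for these miRNAs, close to the 0.278 and 0.196 of all. For 28 miRNAs the adjusted p was above 0.2, from 0.278 to 0.981. Whether these 28 respond to heat is not settled by that, since the 95% interval of the log2 fold change stayed within 1 in either direction for only 19 of the 28.

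**Figure D5:**
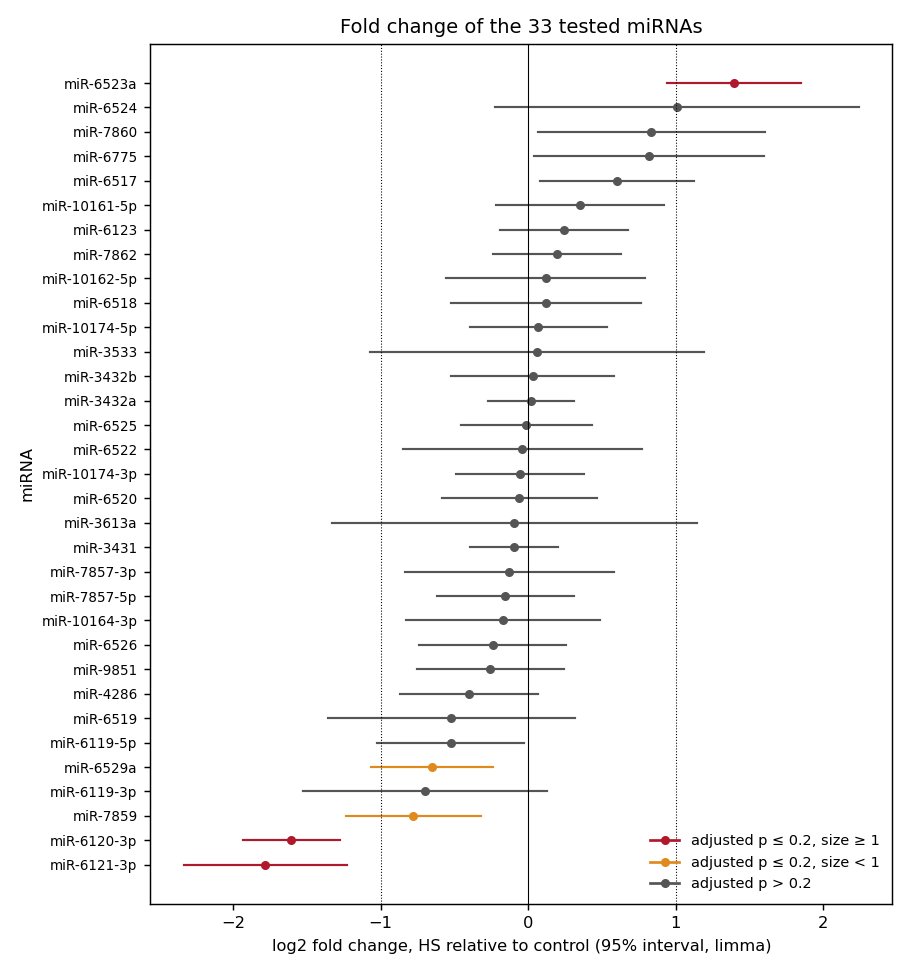
Points are the log2 fold changes of HS relative to control for the 33 tested miRNAs and lines their 95% intervals from limma (3 libraries per group), with dotted lines at a change of 1 in either direction. Red marks the 3 miRNAs that met the study's criterion, orange those under the limit on adjusted p with a smaller change, and grey the rest. bta-miR-6120-3p and bta-miR-6121-3p lie wholly below -1, and the line of bta-miR-6523a runs from 0.94 to 1.85.

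Where both arms of a hairpin had enough reads, the balance between them was compared, a comparison added after the data were seen. It was possible for 3 hairpins with at least 10 reads of either arm in every library. For bta-miR-6119 the log2 ratio of 5p to 3p was 2.92 ± 0.546 in control and 3.09 ± 0.165 in HS (SD, n = 3 each; exact two-sided permutation test, p = 0.6). For bta-miR-7857 it was 1.04 ± 0.262 and 1.01 ± 0.081 (exact permutation test, p = 0.9). For bta-miR-10174 the 3p arm was favoured, with -6.12 ± 0.039 and -5.99 ± 0.164 (exact permutation test, p = 0.4). The adjusted p over these 3 comparisons was 0.9 for each (exact permutation tests, Benjamini-Hochberg), and the smallest p that 3 against 3 libraries allow is 0.1. The arms of bta-miR-7857 were also similar in their change. bta-miR-7857-5p had 417.9, 267.4 and 384.8 CPM in control and 335.1, 318.4 and 292.2 in HS (log2 fold change -0.15, limma adjusted p = 0.839), and the change was -0.027 without control replicate 1 and -0.35 without control replicate 2. bta-miR-7857-3p had 236.8, 106 and 196.1 CPM in control and 171.9, 147.7 and 148.8 in HS (log2 fold change -0.13, limma adjusted p = 0.947). Control replicate 2 was the lowest library for both arms.

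Of the 131 miRNAs, 124 matched a gene in the RefSeq table of assembly ARS-UCD2.0, and for 93 of these miRNAs that gene overlaps a protein-coding gene. Both arms of a hairpin share a gene and are counted separately. That table gives no strand, and exons and introns were not looked up, so only overlap is stated. For 7 of the miRNAs the gene overlaps that of a miRNA outside the set. Of these 7, 5 were listed at 0 in every library: bta-miR-3578, bta-miR-3596, bta-miR-3600, bta-miR-3601 and bta-miR-3604. Several of their partners were plentiful. bta-let-7b, from the locus of bta-miR-3596, had 27266 CPM in control and 30656 in HS. bta-miR-22-3p, from that of bta-miR-3600, had 2872 and 2781 CPM, and bta-miR-199a-3p, from a locus of bta-miR-3604, had 1319 and 1622. The 2 with reads were bta-miR-3065, with 19 reads in all at the locus of miR-338, and bta-miR-3120, with 44 at that of miR-214. At all 7 loci more reads were assigned to the partner outside the set.

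The 46 miRNAs with reads that the filter removed had 1 to 48 reads in all 6 libraries together, with a median of 7, and 11 had at most 3. Reads were seen in both groups for 38, in control cells only for 5 and in HS cells only for 3, all at levels where a count of 0 says little. The clearest contrasts, chosen after their values were seen, were bta-miR-10176-5p, with 0, 0 and 1 control reads and 1, 4 and 4 in HS, and bta-miR-6516, with 1, 1 and 5 control reads and 0 in each HS library. In a limma fit without the filter their adjusted p-values were 0.337 and 0.366.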

How the data were processed

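Per the labels and methods, the authors used cutadapt 1.11 for adapters, molecular identifiers against PCR copies and Bowtie2 2.2.2 on UMD3.1, counted miRBase entries and scaled the counts by TMM. The deposited signal is thus TMM-normalised CPM. Libraries were made from 100 ng of RNA with 16 PCR cycles. All values (100%) were whole multiples of a single read (tolerance 0.01), and these recovered reads gave depth and filter. Identifiers limit PCR duplication, and floors of 3 reads cover counting error only.

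limma 3.58.1 (R 4.3.3, trend) was fitted to log2(value + 1) of all miRNAs kept by filterByExpr (edgeR 4.0.16, minimum count 10), with Benjamini-Hochberg adjustment. This scale understates changes of low miRNAs. Alternatives were edgeR, DESeq2 1.42.0, voom, other scalings, pseudocounts and filters, a replicate block and leaving out single libraries. scipy 1.17.1 gave exact tests.

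Named miRNAs were those past either threshold, the 10 most abundant, the miR-6119 to miR-6123 and miR-6516 to miR-6536 series, other arms of called hairpins, those detected in 1 group, and those whose groups did not overlap with a change of 0.5 or more (log2). The set and lists were chosen with earlier results of these data known. Gene names came from ARS-UCD2.0, not the assembly mapped to, so no positions are given.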

Additional observations from a re-analysis of the deposited data

How the results depend on the processing

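The 3 calls at the study's criterion, 1 higher and 2 lower, were the same miRNAs under 17 of 18 alternatives, and all 3 were kept in the other, which left out control replicate 1 and gave 4. Across the fits that left out 1 library the count ran from 3 to 4 (8 to 16 of all tested miRNAs), and at an adjusted p under 0.05 from 1 to 3 (2 to 12 of all). The DESeq2 Wald test gave 5 at that threshold, adding bta-miR-6529a and bta-miR-7859 (adjusted p = 0.043 and 0.0339), and calls rose over the whole table too, from 8 to 20 of 365 (5.48%). The median change of all tested miRNAs went to 0.175 (log2) with upper quartile factors taken over the tested miRNAs, and to -0.178 over every miRNA with a read, a choice added after the data were seen. Under the second, bta-miR-6523a was at an adjusted p of 0.053, which left 2 under 0.05, and bta-miR-6119-5p and bta-miR-6119-3p were each at 0.197. Under the first, bta-miR-6529a and bta-miR-7859 were at 0.423 and 0.265, and without the filter, where more miRNAs are tested, at 0.211 and 0.275. Over all alternatives the adjusted p of bta-miR-6529a ran from 0.043 to 0.437 and that of bta-miR-7859 from 0.0339 to 0.393.

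Of 391 comparisons of 22 named miRNAs under an alternative, 350 kept direction and side of the 0.2 threshold, 12 lost it, 5 gained it and 24 changed sign. The signs that turned belonged to changes under 0.2 in size that had not passed. With upper quartile factors over the tested miRNAs, bta-miR-10174-3p was at 0.13, bta-miR-3431 at 0.099, bta-miR-7857-5p at 0.039, bta-miR-7857-3p at 0.065, bta-miR-6525 at 0.15, bta-miR-6520 at 0.088 and bta-miR-6522 at 0.11, all below the shifted median. With these factors over every miRNA with a read, bta-miR-3432a was at -0.17 and bta-miR-6518 at -0.061. bta-miR-3432a was at -0.00015 by the edgeR quasi-likelihood test and -0.0051 by voom. Leaving out a library gave -0.075 to 0.094 for bta-miR-3432a, -0.17 to 0.081 for bta-miR-10174-3p, -0.47 to 0.11 for bta-miR-7857-3p, -0.038 to 0.36 for bta-miR-6518, -0.065 to 0.026 for bta-miR-6525, -0.17 to 0.074 for bta-miR-6520 and -0.39 to 0.25 for bta-miR-6522. The cause was not tested.

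Detection followed its minimum: 39 miRNAs in control and 42 in HS cells at 1 CPM, and 8 and 9 at 100 CPM. A minimum of 1 CPM lies below the 3-read floor of control replicate 1 (1.46 CPM), so the counts at 1 CPM depend on depth. The difference in the share of reads was -0.279 points with the 10 most abundant miRNAs out of the denominator, against -0.118 with all miRNAs in it. A smaller denominator makes the difference larger in size by construction. The sources do not say that a replicate number marks shared cells, so the main fit did not pair the libraries. Deviations from the group means correlated at 0.421, -0.117 and 0.616 for replicate numbers 1, 2 and 3. Whether the numbers mark shared cells was not tested. With the replicate block the counts stayed at 3 and 3, and bta-miR-7860 reached an adjusted p of 0.172.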
